A study of Mus musculus with 8 samples.

Results

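Expression of 10 genes that encode galectins, S100 proteins, annexins and vimentin was followed in regulatory T (Treg) cells from mice with both copies of Bcl11b floxed, set against cells with a single floxed copy. The members were taken by symbol: Lgals1, Lgals3, Lgals9, S100a4, S100a6, S100a10, S100a11, Anxa1, Anxa2 and Vim. All 10 were among the 23997 genes of the table, and all 10 passed the filter on low values that left 10614 genes for testing. Bcl11b is a transcription factor of the zinc finger type that T cells need in development. Treg cells are CD4 T cells that suppress immune responses and depend on Foxp3. Bcl11b-deficient cells came from Bcl11b f/f Foxp3-YFP-Cre/+ mice and Bcl11b-sufficient cells from Bcl11b f/+ Foxp3-YFP-Cre/+ mice, both of the C57BL/6 strain. Cre was driven from the Foxp3 locus and fused to the yellow fluorescent protein in both groups, so the sufficient cells also carried Cre and 1 floxed copy of Bcl11b. Foxp3 is X-linked, so animals with a single such allele also keep Treg cells without Cre, which the gate for YFP leaves out. CD4+YFP+ cells of draining lymph nodes and spleen were sorted, and each group had 4 columns of RNA sequencing values. The comparison asked which genes of Treg cells respond to deletion of Bcl11b. No age is given for the animals.

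Galectins are lectins that bind beta-galactoside sugars on surface glycoproteins and act both inside and outside the cell. S100 proteins are small EF-hand proteins that mostly bind calcium and work as dimers on partner proteins, and annexins bind phospholipid membranes in a calcium-dependent way. The families meet in complexes: S100A10 holds annexin A2 in a heterotetramer at the plasma membrane, and S100A11 binds annexin A1. Vimentin builds intermediate filaments. In T cells, several of these genes are expressed more highly in activated and memory cells than in naive cells, and macrophages and neutrophils express many of them strongly.

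Values were FPKM, fragment numbers scaled for transcript length and library size. FPKM summed to between 474416 and 495435 per deficient column, against between 509592 and 613276 per sufficient column. Depth was estimated from the steps between low values at about 2.84e+06 to 1.26e+07 fragments per column. Of the 8 columns, 3 pairs of the same group differed by 1.15 to 1.26 times the spread that read sampling gives, namely replicates 1 and 3 of either group and, of the deficient group, also replicates 2 and 4. The 9 other pairs of the same group differed by 1.86 to 3.91 times. Both columns of such a pair entered as their mean and as a single sample, so 2 independent libraries were deficient and 3 were sufficient. Bcl11b itself averaged 21.7 ± 3.83 FPKM in deficient libraries, against 42.7 ± 3.68 FPKM in sufficient ones (SD, n = 2 and 3), so 50.8% of the sufficient level remained. These are values of the whole gene and not of the deleted part. Nothing in the labels ties a library to its own animal, and every p-value here therefore rests on a spread that may be technical. All 12 T cell and Treg markers passed the filter, and Foxp3 was at 148 FPKM or more in every column. Of these markers 0 were called higher and 1, Ctla4, was called lower in deficient libraries. The Ctla4 call ended under 4 of 19 alternative settings, and the median log2 fold change of the 12 markers was -0.31. The libraries did not overlap for 10 of the 12 (9 lower in deficient libraries), where this held for 36.7% of tested genes (17.9% lower). At an unadjusted p under 0.05, 7 were lower and 0 higher, where 17.8% of all tested genes fell under that p in either direction. Of 22 macrophage and monocyte markers in the table, 21 were tested and 10 were called higher in deficient libraries.

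Lgals3 and Anxa2 rose in Bcl11b-deficient libraries, and the other 8 members did not pass the test. Lgals3 averaged 17.0 ± 4.03 FPKM in deficient libraries, against 4.50 ± 0.288 FPKM in sufficient ones (SD, n = 2 and 3), a ratio of 3.78. Anxa2 averaged 144 ± 27.7 FPKM in deficient libraries, against 46.0 ± 8.04 FPKM in sufficient ones, a ratio of 3.12. Among the 10 members, 2 were called higher and 0 lower (limma, Benjamini-Hochberg adjusted p under 0.05), where 1.93% of all tested genes were called higher and 0.697% lower. The libraries of the groups did not overlap for 2 of the 10, both higher, where this held for 36.7% of all tested genes (18.9% higher and 17.9% lower). The median log2 fold change was 0.05 over the 10 members and -0.01 over all tested genes. A positive fold change means higher in deficient libraries, and all are differences of log2(FPKM + 1). In the same deficient libraries the macrophage and monocyte markers were high, and all 22 markers in the table summed to 1027 and 654 FPKM in deficient libraries, against 269, 331 and 383 FPKM in sufficient ones. The sufficient sums were mostly Ctss, which did not pass (log2 fold change -0.18, limma adjusted p = 0.562). Without it the other 21 summed to 835 and 453 FPKM in deficient libraries, against 57.5, 132 and 121 FPKM in sufficient ones, and their part in the rise of Lgals3 and Anxa2 was not tested. In bulk RNA, more cells of a type and more RNA per cell cannot be told apart.

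**Figure D1:**
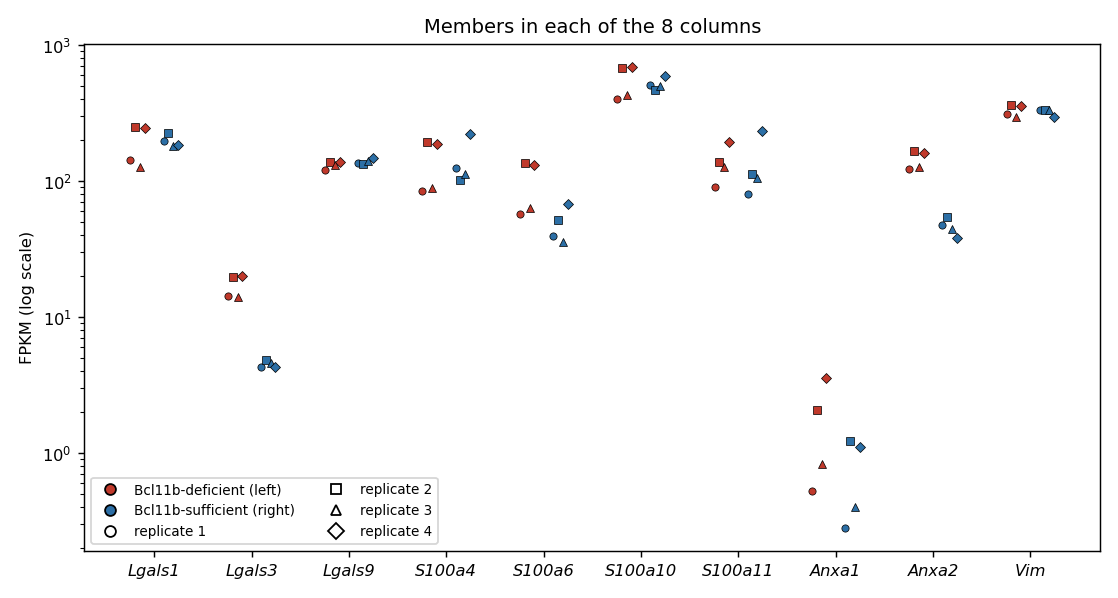
FPKM of the 10 members on a log axis, with Bcl11b-deficient columns in red on the left and Bcl11b-sufficient columns in blue on the right of each gene. Symbols mark the replicate number, and replicates 1 and 3 of both groups and replicates 2 and 4 of the deficient group are near-identical pairs. Lgals3 and Anxa2 are the members whose groups do not overlap in any column.

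Among the galectins, Lgals3 was the member that changed. It encodes galectin-3, the chimera-type galectin with a self-associating tail, which is abundant in macrophages and restrains T cell receptor clustering. Lgals3 (ENSMUSG00000050335.17, chromosome 14, 47367751 to 47386160, plus strand, GRCm38) measured 14.2, 19.6, 14.02 and 20.1 FPKM in the deficient columns, replicates 1 to 4. Its sufficient columns held 4.24, 4.83, 4.55 and 4.28 FPKM in the same order. Every deficient column lay above every sufficient column, and the sufficient columns lay close together. On the log2 scale the fold change was 1.69 (SE 0.16, 95% interval 1.31 to 2.08, limma adjusted p = 0.00885). Permuting the 5 libraries exactly, two-sided, gave p = 0.1, below which 10 assignments cannot go. Without deficient replicates 2 and 4 the log2 fold change was 1.46 and the adjusted p was 0.0647.

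Lgals1 encodes galectin-1, a dimeric galectin that Treg cells use as a suppressive mediator and that can trigger death of activated T cells. It was the galectin with the highest level. It measured 142, 249, 126 and 247 FPKM in deficient columns, against 196, 225, 182 and 185 FPKM in sufficient columns, replicates 1 to 4 in turn. The 2 deficient libraries stood on either side of all sufficient libraries, at 134 and 248 FPKM against 185 to 225 FPKM. The group means were 191 ± 80.4 FPKM in deficient libraries, against 199.6 ± 21.9 FPKM in sufficient ones, and the log2 fold change of -0.12 (95% interval -0.70 to 0.46) did not pass (limma adjusted p = 0.834). Lgals9 encodes galectin-9, a tandem-repeat galectin that binds the inhibitory receptor Tim-3. It measured 121, 137, 131 and 137 FPKM in deficient columns and 135, 132, 141 and 147 FPKM in sufficient columns, replicates 1 to 4 in turn. The groups overlapped within a narrow range, and the log2 fold change was -0.08 (95% interval -0.33 to 0.17, limma adjusted p = 0.736). Scaling libraries to equal totals put the median of all genes at 0.18, a shift of 0.19. The log2 fold changes of Lgals1 and Lgals9 then turned to 0.088 and 0.13, both below that median. With quantile normalization they were 0.0099 and 0.012.

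The balance between the galectins differed with Lgals3. Lgals1 was 9.49 and 12.5 times as high as Lgals3 by FPKM in the 2 deficient libraries, against 43.0, 46.6 and 43.2 times as high in the 3 sufficient libraries. These ratios did not overlap (exact two-sided permutation p = 0.1, the smallest possible). They use the same Lgals3 values that were called higher, and Lgals1 did not pass, so they are not a separate result. Outside the set, 8 further galectin-related genes were in the table and 4 of them were tested, of which 1 was called higher and 0 lower. That gene was Lgals3bp, which encodes a secreted glycoprotein bound by galectin-3. It measured 114, 90.1, 107 and 92.9 FPKM in deficient columns and 58.9, 69.4, 60.1 and 63.8 FPKM in sufficient columns, replicates 1 to 4 in turn. All deficient columns were above all sufficient columns, at a log2 fold change of 0.64 (SE 0.12, limma adjusted p = 0.0485). The call of Lgals3bp ended under 11 of 19 alternative settings, with adjusted p up to 0.281. Lgals8 averaged 32.5 ± 0.901 FPKM in deficient libraries, against 28.3 ± 2.98 FPKM in sufficient ones (limma adjusted p = 0.445). Lgals4 averaged 7.76 ± 0.637 FPKM in deficient libraries, against 9.94 ± 2.70 FPKM in sufficient ones (limma adjusted p = 0.519). Lgalsl, a galectin-like gene, averaged 2.71 ± 0.837 FPKM in deficient libraries, against 3.11 ± 0.930 FPKM in sufficient ones (limma adjusted p = 0.813). None of these passed the test.

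The sequences before the starts of Lgals3 and Anxa2 are shown because these are the members that rose together, and that of S100a6 because it came closest to them among the others. They were taken from RefSeq promoter windows of GRCm38.p6, which held 8 of the 10 members, on the plus strand and only as far as the first annotated exon. The RefSeq start of Lgals3 lies inside the gene as GENCODE annotates it. Capitals mark matches on either strand to TGANTCA (AP-1), GGGCGG (GC box), TGTGGT (RUNX) or TGACCA (described for BCL11A, a relative of Bcl11b). The printed windows are chr14:47373610-47373812 for Lgals3, chr9:69453433-69453619 for Anxa2 and chr3:90612644-90612881 for S100a6.
Lgals3: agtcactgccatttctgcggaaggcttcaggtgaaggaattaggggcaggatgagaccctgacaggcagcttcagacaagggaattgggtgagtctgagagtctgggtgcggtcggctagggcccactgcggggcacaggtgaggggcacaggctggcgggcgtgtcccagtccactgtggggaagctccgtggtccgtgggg
Anxa2: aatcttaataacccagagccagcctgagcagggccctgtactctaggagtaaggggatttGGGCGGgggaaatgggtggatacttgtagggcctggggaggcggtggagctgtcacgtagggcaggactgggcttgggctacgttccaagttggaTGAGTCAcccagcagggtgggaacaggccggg
S100a6: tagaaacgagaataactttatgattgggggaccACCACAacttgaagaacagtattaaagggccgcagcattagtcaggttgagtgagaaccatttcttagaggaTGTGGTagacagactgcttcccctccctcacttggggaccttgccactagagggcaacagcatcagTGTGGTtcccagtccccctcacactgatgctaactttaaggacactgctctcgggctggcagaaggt

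Within the 250 bases before the start, Lgals3 held 1 match, a GC box that begins 7 bases before the start and lies outside the printed stretch. Anxa2 held an AP-1 match beginning 95 bases before the start and 3 GC boxes, of which 1 is in the printed stretch, 190 bases before the start. S100a6 held 3 RUNX matches and none of the other letters. Of 32851 such windows, 6.75% held TGANTCA, 32.7% GGGCGG, 14% TGTGGT and 11.4% TGACCA, and among the 10264 windows of tested genes the shares were 4.01%, 58.4%, 11.1% and 9.57%. None of the 4 sets of letters other than the GC box was found in both Lgals3 and Anxa2. A match describes letters in the window and not a bound site.

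None of the 4 S100 members passed the test. S100a6, calcyclin, a calcium-binding partner of annexins, was nearest to it. S100a6 (ENSMUSG00000001025.8, chromosome 3, 90612882 to 90624181, plus strand, GRCm38) measured 57.4, 134, 63.4 and 132 FPKM in deficient and 39.4, 51.6, 35.8 and 67.3 FPKM in sufficient columns, replicates 1 to 4 in turn. Deficient replicates 2 and 4 lay far above all others, while deficient replicates 1 and 3 lay within the range of the sufficient columns. The means were 96.8 ± 51.4 FPKM in deficient libraries, against 52.2 ± 14.8 FPKM in sufficient ones, with a log2 fold change of 0.81 (SE 0.35, 95% interval -0.01 to 1.63, limma adjusted p = 0.289). Leaving out deficient replicates 2 and 4 gave 0.25, and leaving out deficient replicates 1 and 3 gave 1.37 (adjusted p = 0.768 and 0.196).

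S100a4, which binds non-muscle myosin and is a mark of memory and migrating cells, lies 6.84 kb from S100a6. It measured 83.8, 192, 89.1 and 187 FPKM in deficient columns and 124, 102, 112 and 221 FPKM in sufficient columns, replicates 1 to 4 in turn. Deficient replicates 1 and 3 were the lowest columns and sufficient replicate 4 the highest, and the groups overlapped. Another annotated gene overlaps S100a4, so reads of both may be mixed. The log2 fold change was -0.11 (95% interval -1.07 to 0.85, limma adjusted p = 0.918). S100a4 was 1.43 and 1.42 times as high as its neighbour S100a6 in FPKM in the deficient libraries, and 3.13, 1.97 and 3.28 times as high in the sufficient libraries, which did not overlap (exact two-sided permutation p = 0.2).

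S100a10 encodes p11, an S100 protein that no longer binds calcium and that partners annexin A2 and helps anchor plasminogen at the surface. It was the most abundant member. It measured 404, 674, 429 and 689.7 FPKM in deficient columns and 509, 469.6, 498 and 588 FPKM in sufficient columns, replicates 1 to 4 in turn. The 2 deficient libraries again stood on either side of the sufficient ones, with means of 549 ± 188 FPKM in deficient libraries, against 520.4 ± 60.9 FPKM in sufficient ones. The log2 fold change was 0.04 (95% interval -0.48 to 0.56, limma adjusted p = 0.943). S100a11, calgizzarin, measured 89.9, 138, 127 and 192 FPKM in deficient and 80.3, 112, 106 and 234 FPKM in sufficient columns, replicates 1 to 4 in turn. Sufficient replicate 4 was the highest column and sufficient replicate 1 the lowest, and the log2 fold change was -0.01 (95% interval -0.90 to 0.89, limma adjusted p = 0.994). A pseudogene of S100a11 and 2 of Lgals1 are annotated, and how reads shared with them were counted was not given in the sources used here, so the levels of both genes are uncertain. Scaling to equal totals gave S100a4 0.10, S100a10 0.25 and S100a11 0.20, where the median of all genes was 0.18.

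**Figure D2:**
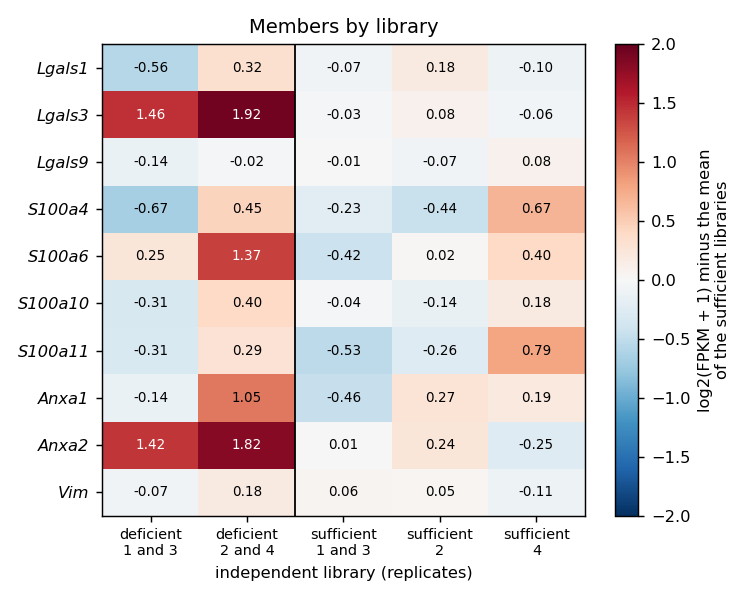
log2(FPKM + 1) of each member in the 5 independent libraries, as the difference from the mean of the 3 Bcl11b-sufficient libraries, with the 2 deficient libraries left of the line. In both deficient libraries Lgals3 is at 1.46 or higher and Anxa2 at 1.42 or higher. Lgals1, S100a4, S100a10, S100a11, Anxa1 and Vim are below 0 in deficient replicates 1 and 3 and above 0 in deficient replicates 2 and 4.

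Of the other S100 genes, 14 were in the table and 5 were tested, with 1 called higher and 0 lower. S100a1, which encodes a calcium sensor best known from muscle, measured 4.86, 5.496, 6.53 and 11.1 FPKM in deficient and 1.481, 2.52, 1.40 and 2.35 FPKM in sufficient columns, replicates 1 to 4 in turn. No deficient column fell within the sufficient range, and S100a1 was called at a log2 fold change of 1.36 (SE 0.23, limma adjusted p = 0.0339). Its call ended under 7 of 18 alternative settings, among them without deficient replicate 3, without sufficient replicate 2 or 4 and without either deficient library, with adjusted p up to 0.212. S100a13, which lies beside S100a1, averaged 72.7 ± 16.1 FPKM in deficient libraries, against 69.6 ± 14.2 FPKM in sufficient ones (limma adjusted p = 0.902). S100pbp, which encodes a binding partner of an S100 protein, averaged 11.7 ± 0.121 FPKM in deficient libraries, against 10.99 ± 0.442 FPKM in sufficient ones (adjusted p = 0.716). S100a8 and S100a9 encode the subunits of calprotectin, the main S100 dimer of neutrophils. S100a8 was at 1.18 and 16.04 FPKM in deficient libraries, against 0, 13.1 and 2.97 FPKM in sufficient ones. S100a9 was at 2.62 and 14.1 FPKM in deficient libraries, against 0, 18.0 and 2.30 FPKM in sufficient ones. These genes were high in 1 library of each group, and neither passed (limma adjusted p = 0.809 and 0.728). The 6 other S100a genes of chromosome 3 did not pass the filter, and none of them exceeded 0.904 FPKM in any independent library.

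Anxa2 was the annexin that passed the test. It encodes annexin A2, a membrane organiser that, with S100A10, binds plasminogen and links membranes to actin. Anxa2 (ENSMUSG00000032231.14, chromosome 9, 69453620 to 69491795, plus strand, GRCm38) measured 122, 166, 126 and 160.3 FPKM in the deficient columns, replicates 1 to 4. Its sufficient columns held 47.2, 54.2, 44.4 and 38.1 FPKM in the same order. Every deficient column was above every sufficient column, with the lowest deficient one at 122 FPKM and the highest sufficient one at 54.2 FPKM. On the log2 scale the fold change was 1.62 (SE 0.18, 95% interval 1.20 to 2.04, limma adjusted p = 0.00982). The call ended without either deficient library, at 1.82 (adjusted p = 0.0668) without replicates 1 and 3 and 1.42 (0.0854) without replicates 2 and 4, and with no filter on low values (0.054). An antisense gene is annotated within Anxa2, and strand use in the counting was not given in the sources used here.

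Anxa1 encodes annexin A1, a glucocorticoid-induced protein that signals through formyl peptide receptors and is abundant in neutrophils. It measured 0.523, 2.06, 0.818 and 3.56 FPKM in deficient columns and 0.279, 1.22, 0.395 and 1.096 FPKM in sufficient columns, replicates 1 to 4 in turn. These levels correspond to about 1.2 to 51 fragments per column, and the groups overlapped. Another annotated gene overlaps Anxa1. The log2 fold change was 0.46 (95% interval -0.48 to 1.39, limma adjusted p = 0.597). The neutrophil markers, 11 genes in the table, summed to 8.84 and 41.5 FPKM in deficient libraries, against 3.93, 45.2 and 6.97 FPKM in sufficient ones. Of these markers 5 were tested, and 0 were called higher or lower, where 2.63% of all tested genes were called. Anxa1 was highest in deficient replicates 2 and 4 and, among sufficient libraries, in replicate 2, which were also the libraries with the most neutrophil marker RNA. Sufficient replicate 4 had nearly as much Anxa1 with few neutrophil markers, and the part of these markers in the result was not tested. Of the 10 other annexin genes, 5 were tested and 0 were called in either direction by limma, where 2.63% of all tested genes were. None fell under an unadjusted p of 0.05 either, where 17.8% of all tested genes did. So few genes cannot show that the other annexins did not differ. Their log2 fold changes lay between -0.20 (Anxa4) and 0.09 (Anxa11). Anxa6, the most abundant of them, averaged 197 ± 20.8 FPKM in deficient libraries, against 200.4 ± 12.97 FPKM in sufficient ones (limma adjusted p = 0.938). Anxa5 averaged 38.1 ± 4.67 against 39.0 ± 2.54 FPKM and Anxa7 17.0 ± 2.01 against 18.9 ± 1.89 FPKM, again deficient against sufficient.

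The ratio of the annexin A2 partner genes was lower in deficient libraries. S100a10 was 3.36 and 4.18 times as high as Anxa2 by FPKM in the 2 deficient libraries, against 10.997, 8.67 and 15.4 times as high in the 3 sufficient ones. The groups did not overlap (exact two-sided permutation p = 0.1, the smallest possible). The ratio uses the same Anxa2 values that were called higher, and S100a10 did not pass, so it is not a separate result. In both groups S100a10 remained the more abundant of the pair.

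Vim encodes vimentin, the intermediate filament protein of leukocytes and mesenchymal cells. It measured 311, 364, 298 and 358 FPKM in deficient columns and 335, 330.1, 332 and 297 FPKM in sufficient columns, replicates 1 to 4 in turn. The groups overlapped, with means of 333 ± 40.4 FPKM in deficient libraries, against 320.2 ± 20.1 FPKM in sufficient ones. The log2 fold change was 0.05 (95% interval -0.25 to 0.35, limma adjusted p = 0.872). Of 26 genes of the filament and cortical cytoskeleton, all tested, 0 were called in either direction, where 2.63% of all tested genes were. Their log2 fold changes had a median of -0.03, and 5 were higher and 2 lower at an unadjusted p under 0.05, beside 17.8% of all tested genes.

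**Figure D3:**
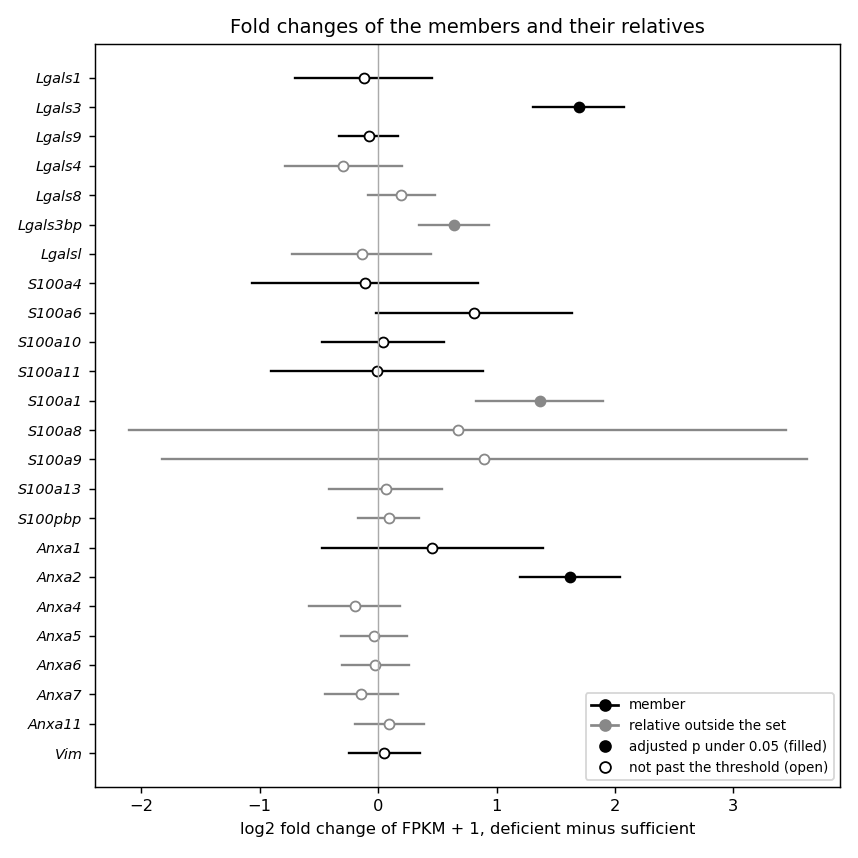
log2 fold changes of FPKM + 1, deficient minus sufficient, with 95% intervals from limma, for the 10 members (black) and the tested relatives outside the set (grey). Filled points have an adjusted p under 0.05: Lgals3 at 1.69, Lgals3bp at 0.64, S100a1 at 1.36 and Anxa2 at 1.62.

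The members spanned a wide range of levels. Over the 5 libraries S100a10 averaged 532 FPKM, Vim 325 FPKM and Lgals1 196 FPKM, and this order held in all 5 libraries. S100a4, S100a11 and Lgals9 averaged 143, 142 and 136 FPKM, and their order changed between libraries. Anxa2 averaged 85.0 FPKM and S100a6 70.0 FPKM, with Anxa2 the higher in 4 of 5 libraries. Lgals3 at 9.50 FPKM and Anxa1 at 1.23 FPKM were the lowest in every library. In rank over all 23997 genes, S100a10 was 114th and Anxa1 10393rd.

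All 10 members were lower in deficient replicates 1 and 3 than in deficient replicates 2 and 4. The ratio of the first library over the second had a median of 0.634 over the members and ran from 0.238 for Anxa1 to 0.921 for Lgals9. It was 0.712 for Lgals3 and 0.76 for Anxa2. Among all tested genes with a value in both, 5402 of 10585 were lower in the first library, and the median ratio was 0.995. Of 21 tested macrophage and monocyte markers, 18 were higher in the first library, with a median ratio of 1.56. The 3 that were lower there, as the members were, were Itgam (0.551), Ly6c2 (0.815) and Ctss (0.955). Of 29 tested effector and memory T cell genes, 24 were lower in the first deficient library (median ratio 0.824), and of 12 T cell and Treg markers 9 were (median ratio 0.949). So were 5 of 7 NK cell markers (median ratio 0.873) and 4 of 5 neutrophil markers (median ratio 0.0734). These ratios compare 2 libraries and carry no test.

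**Figure D4:**
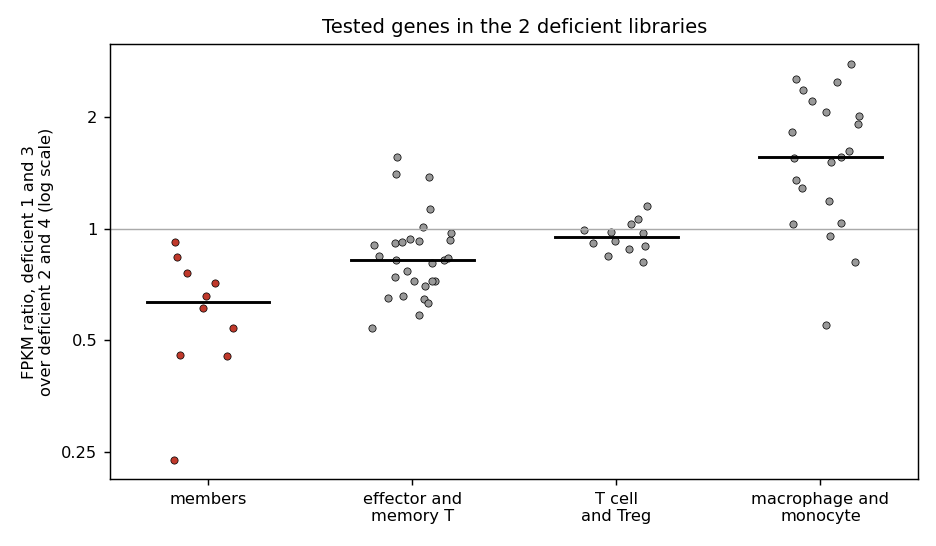
Ratio of FPKM in deficient replicates 1 and 3 over deficient replicates 2 and 4, on a log axis, for each tested gene of 4 lists, with a bar at the median. All 10 members (red) lie below 1, and 18 of 21 macrophage and monocyte markers lie above 1.

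Other marker lists differed as follows. Of 7 tested NK cell markers, 4 were called higher, namely Klrd1, Fcer1g, Gzma and Tyrobp, and 0 lower, where 1.93% of all tested genes were called higher. The others, Klrb1c, Eomes and Prf1, did not pass (log2 fold change 0.52, 0.04 and -0.13, limma adjusted p = 0.315, 0.936 and 0.809). Ncr1, Klre1 and Klra8 did not pass the filter, and none of them exceeded 0.539 FPKM in any independent library. The 10 in the table summed to 342 and 380.3 FPKM in deficient libraries, against 6.64, 25.4 and 19.7 FPKM in sufficient ones. The deficient sums were mostly Fcer1g, at 247 and 283 FPKM, against 0.98, 6.93 and 6.41 FPKM in sufficient libraries. Of 19 alternative settings, the call ended under 1 for Klrd1, 4 for Fcer1g, 6 for Gzma and 7 for Tyrobp, with adjusted p up to 0.269. The macrophage markers with the lowest adjusted p were Fcgr3, Mpeg1, Emr1 and Ly6c2, at log2 fold changes of 3.40, 3.18, 2.64 and 2.06. Their calls ended under 2, 3, 5 and 5 of 19 alternatives, in that order. Of 4 tested dendritic cell markers, 2 were called higher, Siglech and Batf3, at log2 fold changes of 2.11 and 1.66, beside 1.93% of all tested genes. The others, Bst2 and Zbtb46, did not pass (log2 fold change -0.0019 and 0.65, limma adjusted p = 0.995 and 0.370). Bst2 averaged 120 FPKM in either group. The call ended under 6 of 17 alternatives for Siglech (adjusted p up to 0.095) and under 9 of 18 for Batf3 (up to 0.214). Of the B cell, CD8 T cell, neutrophil and stromal markers, 3, 1, 5 and 1 were tested, and limma called none of them. At an unadjusted p under 0.05 these were 0 higher and 1 lower, a B cell marker. So few tested markers cannot show that these lists did not differ. The part of these cell types in the rise of Lgals3 and Anxa2 was not tested.

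Genes that encode partners and receptors of the members were also compared. Of 24 such genes in the table, 17 were tested, with 0 called higher and 1 lower. Over all tested genes 1.93% were called higher and 0.697% lower. At an unadjusted p under 0.05, 2 of the 17 were higher and 2 lower, beside 17.8% of all tested genes. Tnfrsf9, the costimulatory receptor 4-1BB, which galectin-9 binds, averaged 36.8 ± 2.01 FPKM in deficient libraries, against 66.0 ± 4.77 FPKM in sufficient ones (log2 fold change -0.82, SE 0.11, limma adjusted p = 0.0178). Its call ended with equal totals (adjusted p = 0.0671), without sufficient replicate 2 (0.0524), and when a deficient library was left out (0.144 without replicates 1 and 3, 0.0957 without replicates 2 and 4). Fpr1, a formyl peptide receptor for annexin A1, averaged 2.40 ± 0.681 FPKM in deficient libraries, against 0.288 ± 0.348 FPKM in sufficient ones (limma adjusted p = 0.055). Cd7, a receptor for galectin-1, averaged 76.7 ± 33.3 FPKM in deficient libraries, against 35.0 ± 8.50 FPKM in sufficient ones, without overlap (log2 fold change 1.07, limma adjusted p = 0.129). Lag3, an inhibitory receptor bound by galectin-3, averaged 18.9 ± 1.79 FPKM in deficient libraries, against 38.9 ± 15.9 FPKM in sufficient ones (limma adjusted p = 0.188). Cd44, an adhesion receptor bound by galectin-9, averaged 20.2 ± 0.954 FPKM in deficient libraries, against 23.7 ± 3.30 FPKM in sufficient ones (adjusted p = 0.469). Of 29 tested effector and memory T cell genes, 0 were called in either direction, where 2.63% of all tested genes were. At an unadjusted p under 0.05, 3 were higher and 2 lower (17.8% among all tested genes), and the median was -0.12 on the log2 scale. Ctss, Itgam, Fpr1, Cd7, Lag3, Cd44, Klrb1c, Eomes, Prf1, Ncr1, Klre1, Klra8, Bst2 and Zbtb46 were named after their values were seen.

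The genes most like a member were taken as those with the smallest root-mean-square difference in centred log2(FPKM + 1) over the 5 libraries. For Lgals3 these were Klrk1, an activating NK receptor, at 0.0719, Itga2, an integrin chain that binds collagen, at 0.103, and Aoah, which encodes a lipid hydrolase of myeloid cells, at 0.109. In sufficient libraries Klrk1 was at 0.180, 0.334 and 0.304 FPKM, Itga2 at 0.379, 0.663 and 0.581 and Aoah at 0.0297, 0.209 and 0.103. In deficient libraries they were at 2.63 and 4.22, 3.09 and 4.13, and 2.26 and 2.65 FPKM, in that order. Adding 1 shrinks changes at such low levels, so a near profile here is not an equal ratio of FPKM. For Anxa2 the nearest genes were Pde3b, a cyclic nucleotide phosphodiesterase, at 0.0774, Slfn9, at 0.114, and Lgals3, at 0.121. Only 3 tested genes lay closer to Lgals3 than Anxa2 did. For S100a6 they were Lmo2, Gpr55 and Vaultrc5, at 0.13, 0.133 and 0.16. The spread of the members themselves around their means was 0.843 for Lgals3, 0.819 for Anxa2 and 0.593 for S100a6 on the same scale.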

How the data were processed

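RNA of sorted CD4+YFP+ Treg cells was sequenced in 8 samples, 4 per group. The mm10 build, Cuffdiff 2.2.1, Cuffnorm 2.2.1, STAR 2.5.1, cutadapt 1.12, Trim Galore 0.4.2 and FastQC are listed, per the submitters' processing notes, with settings and annotation not given in the sources used here. Per the labels' protocols, a stranded kit for total RNA was used. The authors deposited FPKM, a unit taken from the name of their table and its values, and any further scaling between libraries was not given in the sources used here. Among 16 value columns, 8 matched samples by name and 8 were not used.

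The value of 1 fragment was estimated per column from 2172 genes with a single annotated transcript of at least 1500 bases, of whose low values 75.7% to 81.6% lay within 0.1 of a whole number of fragments. Columns of a group were averaged where the spread of their log ratios, for genes at 150 to 500 fragments, was under 1.5 times sampling noise. With a median-based spread, deficient replicates 2 and 3 also fell under that bound, at 1.39, and were not averaged. Genes that averaged 1 FPKM or more over the libraries were tested on log2(FPKM + 1) by limma 3.58.1 (R 4.3.3), using a mean-variance trend and group as the only term, and p-values were adjusted by Benjamini-Hochberg over all tested genes. The fit was also run on simulated data with known changes and independent noise in each library. Such data cannot test whether the real libraries are independent or whether averaging the column pairs was right. FPKM are relative within a library, and adding 1 understates the change of low genes. Genes named were the members, every tested relative, up to 4 called genes of each list by adjusted p, Bcl11b, and the 3 nearest genes. The members and lists were chosen with earlier results of these data known, so their direction is not independent evidence. Gene positions are from GENCODE M21 (GRCm38), in which 22694 symbols matched. Alternatives changed the pseudocount, filter, scaling, variance model, averaging and libraries.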

Additional observations from a re-analysis of the deposited data

How the results depend on the processing

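Of the members, Lgals3 kept its direction under all 19 alternatives and its call under 18, and Anxa2 kept its direction under 19 and its call under 16. Alternatives that left out 1 column of a near-identical pair kept the other column, so they could change little. With libraries or columns left out in turn, the log2 fold change ran from 1.46 to 1.92 for Lgals3 and from 1.42 to 1.82 for Anxa2, with adjusted p up to 0.0647 and 0.0854. With no filter on low values Anxa2 had 1.62 (adjusted p = 0.054). The number of members called was 2 in the report, 1 with no filter, 3 with 8 columns and a replicate block, and 0 to 2 with libraries or columns left out. The number of genes called was 279 in the report. It was 182 with a pseudocount of 0.1, 99 with no filter, 113 with a mean of at least 5 FPKM, 1851 with 8 columns as separate libraries and 1418 with a replicate block added, and 8 to 297 with libraries or columns left out, at the low end without deficient replicates 2 and 4, which leaves 1 deficient library assumed to vary like the other group. The share of calls that were higher was 73.5% in the report, 91.8% with equal totals, 91.9% with no filter, 64.6% with the stricter filter, and 54.2% and 54.7% with 8 columns, without and with the replicate block.

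Whether the replicate numbers pair the samples was not settled. Same-numbered columns correlated only weakly, at 0.0275, 0.0581, 0.126 and 0.0906, but 3 of 4 correlated best with their own number. With the replicate block on 8 columns, S100a6 was called by limma at 0.92 (adjusted p = 0.00817). That fit counts near-identical columns as separate samples, so its p-value rests partly on the spread of read sampling. Bcl11b kept its direction under all 19 alternatives and its call under 13, with adjusted p up to 0.133.

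Members that did not pass changed sign as follows. With equal totals Lgals1 was 0.088, Lgals9 0.13, S100a4 0.10 and S100a11 0.20, with quantile normalization 0.0099, 0.012, 0.0077 and 0.10, and with 8 columns S100a11 was 0.11 with and without the replicate block. With libraries or columns left out the ranges were -0.56 to 0.32 for Lgals1, -0.67 to 0.45 for S100a4, -0.31 to 0.40 for S100a10, -0.31 to 0.39 for S100a11 and -0.072 to 0.18 for Vim. Among relatives, equal totals gave Lgalsl 0.018, Anxa5 0.17, Anxa6 0.19 and Anxa7 0.06, quantile normalization Anxa5 0.0071 and Anxa6 0.13, and 8 columns Anxa6 0.00235 with and without the block. Their ranges with libraries left out were -0.37 to 0.093 for Lgalsl, -0.81 to 2.16 for S100a8, -0.13 to 2.03 for S100a9, -0.16 to 0.29 for S100a13, -0.16 to 0.087 for Anxa5 and -0.13 to 0.083 for Anxa6. The cause of these changes was not tested. Of 532 counts of called list genes compared, 458 stayed within 1.5 times and 74 did not. Anxa1 rested on about 1.2 to 51 fragments per column.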

Other observations

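S100a11 differed within each pair of near-identical columns by more than most genes. It was 1.41 times as high in deficient replicate 3 as in 1, 1.40 times as high in deficient replicate 4 as in 2, and 1.31 times as high in sufficient replicate 3 as in 1. Among 1692 tested genes that averaged 50 FPKM or more, 7 were at least this much higher in all 3 pairs. The others were Eno1, Atp5l, Sec61g, Snrpg, Gng5 and Rpl5, with Eno1 2.85, 2.64 and 3.48 times as high in the same 3 comparisons. Among members, Anxa1 was also higher in all 3 pairs, at 1.57, 1.73 and 1.42 times, from far fewer fragments, and the 8 others were not higher in all 3. In each pair the column with the higher S100a11 value was the deeper one, at an estimated 1.18e+07, 9.41e+06 and 1.21e+07 fragments against 3.03e+06, 3.50e+06 and 2.84e+06. These values were looked at after the data were seen and carry no test.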
